A study of Mus musculus with 37 samples.

Results

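The genes described here encode the nuclear subunits of the mitochondrial respiratory chain and of ATP synthase, measured in the mammary glands of female C57BL/6 mice. They were taken by symbol: Ndufa, Ndufb, Ndufc, Ndufs, Ndufv, Uqcr, Atp5 and Cox4 to Cox8 as first letters, together with Sdha, Sdhb, Sdhc, Sdhd, Cyc1 and Cycs. Cox8b and Cox7a1 were left out by that rule. This gave 84 genes of the 12394 that the array names singly. They had 158 probe sets, and each gene was read from the brightest of its probe sets, by the mean of 37 arrays. The prefixes also caught 5 assembly factors of complex I (Ndufaf1, Ndufaf3, Ndufaf4, Ndufaf5 and Ndufaf7), which are not subunits of the finished complex, and they are kept apart below. Another 9 symbols, among them Ndufa11, Ndufb4 and Ndufs6, stood only on 8 probe sets that name several genes and were not used.

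The respiratory chain moves electrons from NADH through complex I, and from succinate through complex II, to ubiquinone. Complex III passes them to cytochrome c, and complex IV passes them on to oxygen. Complexes I, III and IV pump protons across the inner mitochondrial membrane, and ATP synthase uses the return of those protons to make ATP. Brown fat and muscle are rich in these complexes, and a mammary gland lies in a fat pad close to the skin and its muscle.

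The study began when mice were 9 weeks old and lasted 6 weeks. The 10 AL mice ate freely and had no wheel, and the 9 AL+EX mice ate freely and had a running wheel. The 9 CR mice and the 9 CR+EX mice, the latter with a wheel, got 70% of the calories of the AL group but all of the other nutrients. The labels name no transgene and no drug in any group. RNA came from the thoracic glands of both sides of an animal, pooled, and each animal had 1 Affymetrix array.

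Values are Affymetrix signals, scaled by the authors so that the trimmed mean of every array lay between 500.165 and 500.23, and tests used log2(signal + 16). Of all genes, 9295 passed a filter on the mean signal, and all 84 members were among them. The array number limits the precision, and a whole gland gives no way to tell fewer cells of a type from less RNA per cell. Animal numbers in the labels fell into 4 runs (8, 11, 10 and 8 arrays), each with all 4 groups, and within each run the numbers rose from AL through AL+EX and CR to CR+EX. The labels do not call a run a batch. B lymphocyte markers were high on 15 arrays, among them all 8 of run 4, and 5 arrays had a Gapdh 3' to 5' signal ratio above 2, of which 3 were AL and 2 CR+EX. Luminal epithelium markers, which mark the milk-forming cells of the gland, were measured on every array, with a summed signal over 10 genes of 3843 to 31964.

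The averaged restriction contrast set the 18 restricted animals against the 19 unrestricted ones, over both wheel states. Differences were small and mostly upward: 72 of the 84 members lay above 0, against 44.8% of all genes tested, and the median difference was 0.09 on the log2 scale against -0.02 for all genes. In limma's fit over all genes, 6 members were called higher at an adjusted p under 0.05 and 0 lower. The background was 4.16% of all genes called higher and 4.6% called lower (8.77% in either direction), and the count of members is to be read against it. A further 16 members had an unadjusted p under 0.05 without a call, which makes 22 of 84 (26.2%) against 24% of all genes. All 22 lay above 0, where 10.6% of all genes had such a p. No test was applied to that shared direction. Members varied together between animals of a group (median pairwise correlation 0.35, against 0.01 for all genes). Their signs, here and in the other contrasts, are therefore not independent counts.

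The called members were spread over the chain. They were Ndufs7, Ndufb6 and Ndufab1 of complex I, Sdhd of complex II, the carrier Cycs and Atp5o of ATP synthase. No subunit of complexes III or IV was called. The members just outside the threshold were at an adjusted p of 0.062 for Ndufc1, 0.065 for Ndufs5, 0.073 for Ndufa6 and 0.075 for Cox8a. Ndufc1, Ndufs5 and Ndufa6 are named because their values lay next to the threshold.

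**Figure D1:**
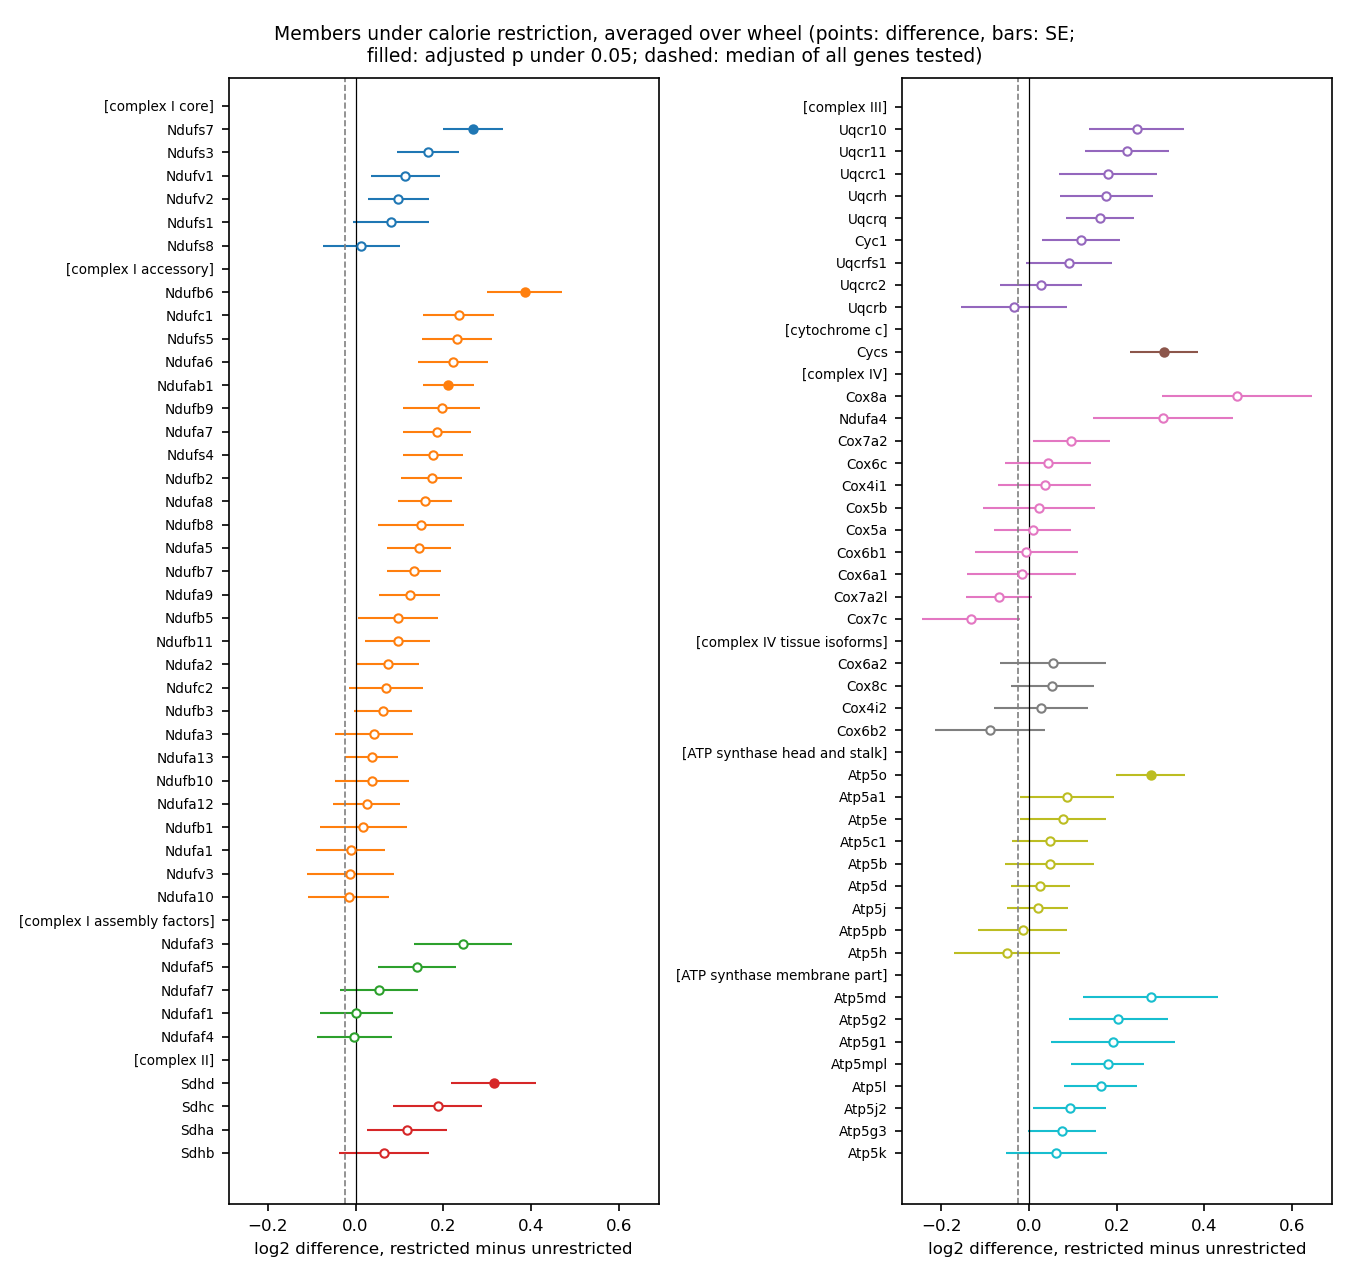
Log2 difference between restricted and unrestricted mice, averaged over the wheel, for each of the 84 members (points, with bars of 1 standard error), grouped by complex. The 6 filled points are the called members, 72 of 84 points lie to the right of 0, and the dashed line at -0.02 is the median of all genes tested.

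Ndufb6 is an accessory subunit in the membrane arm of complex I. Its signals ran from 2678 to 4899 (median 3924) in AL, from 2847 to 4802 (4147) in AL+EX, from 3963 to 7147 (4892) in CR and from 4141 to 6109 (5014) in CR+EX. The ranges overlapped, but 17 of 18 restricted animals lay above the unrestricted median of 4020, and 0 of 19 unrestricted animals lay above the restricted median of 4952. The averaged difference was 0.39 ± 0.08 (SE; 1.31-fold, adjusted p = 0.0036 by limma).

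Ndufs7 is a core subunit of complex I and holds the iron-sulphur cluster that hands electrons to ubiquinone. It measured 4483 to 6948 (median 5815) in AL and 5359 to 6995 (6431) in AL+EX, against 6188 to 9566 (7176) in CR and 5583 to 8913 (7096) in CR+EX. As for Ndufb6, 17 of 18 restricted animals lay above the unrestricted median and 0 of 19 unrestricted animals above the restricted one. The difference was 0.27 ± 0.07 (1.20-fold, adjusted p = 0.010 by limma).

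Ndufab1, the mitochondrial acyl carrier protein, is both a part of complex I and a carrier in fatty acid synthesis within mitochondria. Its signals were 4502 to 6507 (median 5598) in AL, 4834 to 7124 (5598) in AL+EX, 5526 to 7891 (6547) in CR and 5535 to 7107 (6158) in CR+EX. Restricted animals were above the unrestricted median in 16 of 18 cases, and 2 of 19 unrestricted animals were above the restricted median. The difference of 0.21 ± 0.06 (1.16-fold, adjusted p = 0.017 by limma) was the smallest of the called members.

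Of the 33 subunits of complex I, 30 lay above 0 and 13 had an unadjusted p under 0.05, including the 3 that were called. The 6 core subunits had a median difference of 0.11 and all 6 were above 0, and the 27 accessory subunits had a median of 0.12 with 24 above 0. Ndufs1, the largest core subunit, had group medians of 4195 in AL, 4177 in AL+EX, 4918 in CR and 4680 in CR+EX, with a difference of 0.08 ± 0.09 (adjusted p = 0.63 by limma). Ndufv1, which binds NADH, gave 0.11 ± 0.08 (adjusted p = 0.41), and Ndufa9, an accessory subunit near the ubiquinone site, gave 0.12 ± 0.07 (adjusted p = 0.28). The 3 accessory subunits below 0, Ndufa1, Ndufa10 and Ndufv3, all lay between -0.02 and -0.01 and are named for their sign. The 5 assembly factors had a median of 0.05 and 0 calls, led by Ndufaf3 at 0.25 ± 0.11 (adjusted p = 0.17). Ndufaf1 was at 0.00 ± 0.08.

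Complex II oxidizes succinate and is shared with the tricarboxylic acid cycle. Sdhd, 1 of its membrane anchors, measured 3952 to 7121 (median 5490) in AL, 3673 to 6604 (5222) in AL+EX, 4981 to 11433 (6560) in CR and 5472 to 8481 (6099) in CR+EX. The overlap was wider than for Ndufb6: 17 of 18 restricted animals were above the unrestricted median, and 5 of 19 unrestricted animals above the restricted one. The difference was 0.31 ± 0.10 (1.24-fold, adjusted p = 0.035 by limma). It did not pass in 8 of 37 fits that each left out 1 animal, and without CR replicate 8, the animal at 11433, it was 0.27 (adjusted p = 0.056). It also missed the threshold without the 15 arrays high in B lymphocyte markers (0.35, adjusted p = 0.066) and after quantile normalization (0.25). The flavoprotein Sdha was at 0.12 ± 0.09 (adjusted p = 0.47), the iron-sulphur subunit Sdhb at 0.07 ± 0.10 (0.75) and Sdhc, the other anchor, at 0.19 ± 0.10 (0.26). All 4 subunits lay above 0.

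Complex III had no call among its 9 subunits, 8 of which lay above 0, with a median difference of 0.16. Uqcr11, a small subunit, had the smallest p: its medians were 7676 in AL, 7327 in AL+EX, 9200 in CR and 8636 in CR+EX, and its difference was 0.22 ± 0.10 (adjusted p = 0.14 by limma). The group ranges of Uqcr11 overlapped, from 4383 to 11378 in AL and from 7353 to 12284 in CR. Cyc1, the cytochrome c1 that hands electrons to cytochrome c, gave 0.12 ± 0.09 (adjusted p = 0.45). The core proteins Uqcrc1 and Uqcrc2 gave 0.18 ± 0.11 (0.33) and 0.03 ± 0.09 (0.90), and the hinge protein Uqcrh 0.18 ± 0.11 (0.32).

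Cycs encodes cytochrome c, the mobile carrier between complexes III and IV. Its signals were 6694 to 10040 (median 8119) in AL, 7305 to 13597 (8424) in AL+EX, 8297 to 13890 (9484) in CR and 8376 to 12812 (11323) in CR+EX. The groups overlapped: AL reached 10040, above the CR median of 9484, and AL+EX held a high animal at 13597. Of restricted animals, 16 of 18 lay above the unrestricted median of 8412, and 1 of 19 unrestricted animals lay above the restricted median of 10844. The averaged difference was 0.31 ± 0.08 (1.24-fold, adjusted p = 0.010 by limma).

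The promoter of Cycs is known for sites of NRF1 (nuclear respiratory factor 1) and of CREB, and that of Ndufb6 is shown beside it because this member had the largest called difference. Both stretches are the 250 bases before the start site, read on the minus strand, from RefSeq's windows of build GRCm38.p6. In Cycs the capitals mark TGACGTCA, the cyclic AMP response element (CRE), at 169 to 162 bases before the start, and the reverse complement of GCGCATGCG, an NRF1 core, at 61 to 53 bases before it. In Ndufb6 they mark GCGCAT, the first 6 letters of that core, at 77 to 72 bases before the start.
Cycs chr6:50566570-50566819: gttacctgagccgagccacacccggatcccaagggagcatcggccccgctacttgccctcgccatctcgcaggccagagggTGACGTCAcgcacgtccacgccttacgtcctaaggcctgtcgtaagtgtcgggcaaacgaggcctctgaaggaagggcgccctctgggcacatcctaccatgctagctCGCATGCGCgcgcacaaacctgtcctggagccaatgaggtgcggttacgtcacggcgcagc
Ndufb6 chr4:40279422-40279671: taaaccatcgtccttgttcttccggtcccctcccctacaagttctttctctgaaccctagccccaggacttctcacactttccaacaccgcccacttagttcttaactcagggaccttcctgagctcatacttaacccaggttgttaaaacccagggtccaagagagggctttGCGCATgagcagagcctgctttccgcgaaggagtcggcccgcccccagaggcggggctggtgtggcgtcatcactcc

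RefSeq's table held a window of 250 bases before to 50 after the start for 69 of the 84 members, in 74 windows, among 32851 windows of all genes. GCGCATGCG, searched on both strands, stood in 13.5% of member windows (10 genes) and 1.75% of all windows. Cycs was the only called member of those 10. It lay wholly before the start site in 7 of the 10, and in Uqcr11 it ran across the start. These genes are shown so that the letters on both sides can be compared, each turned so that the core, in capitals, reads forward. Atp5g2, Atp5k and Cox6a1 are read on the minus strand and the others on the plus strand, from the same RefSeq windows.
Atp5g2 chr15:102671073-102671097: ctccggccGCGCATGCGcagagcct
Atp5k chr5:108434433-108434457: tcactgcgGCGCATGCGcctttctg
Atp5l chr9:44920967-44920991: ggggaaatGCGCATGCGttattggt
Cox6a1 chr5:115349104-115349128: ggaacgggGCGCATGCGcgctctcg
Cycs chr6:50566614-50566638: ttgtgcgcGCGCATGCGagctagca
Ndufa8 chr2:36049331-36049355: taccatctGCGCATGCGtctccagc
Ndufaf4 chr4:24897962-24897986: agatgtctGCGCATGCGcctgtgcg
Uqcr11 chr10:80406810-80406834: gacgtataGCGCATGCGtgaaggcg
Ndufaf5 and Uqcrc1 had it only after the start. AAGATGGCG, a YY1 site that includes a start codon, stood in 8.11% of member windows and 1.4% of all, Ndufs7 among them. TCAAGGTCA, a site of estrogen-related receptors, stood in 2.7% against 0.423% (Sdhd and Atp5g3), TGACGTCA in 5.41% against 1.79%, and CCGGAAGT, an ETS site, in 6.76% against 3.89%. The shorter GCGCAT, added after the windows had been read and contained in GCGCATGCG, stood in 24.3% against 6.86%. All were searched on both strands, TGACGTCA reads the same on both, and a match here describes letters and not binding.

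Complex IV held both the highest and the lowest difference of all 84 members. Of its 11 members, which include the linking factor Cox7a2l described below, 7 lay above 0, the median was 0.02, and 0 were called. Cox8a, its smallest nuclear subunit, had the largest difference of all members, 0.47 ± 0.17 (1.39-fold, adjusted p = 0.075 by limma). Its signals ran from 2860 to 19003 (median 11545) in AL, from 4417 to 11723 (9333) in AL+EX, from 8216 to 24934 (14052) in CR and from 9247 to 19548 (11994) in CR+EX. AL held both the lowest and a very high animal, so the groups overlapped broadly. Without AL replicate 8, the animal at 2860, the difference was 0.37 (adjusted p = 0.091). Another bright probe set of Cox8a gave 0.53 ± 0.20, so both bright probe sets of this gene lay on the same side. Ndufa4, once assigned to complex I and now to complex IV, had the second largest difference of the complex at 0.30 ± 0.16 (adjusted p = 0.24), and the same AL animal was its lowest, at 1826. Cox4i1, a nuclear-encoded subunit, differed little across groups, with medians of 15384 in AL, 13674 in AL+EX, 15751 in CR and 15214 in CR+EX, and a difference of 0.04 ± 0.11 (adjusted p = 0.88). Cox5a gave 0.01 ± 0.09 (adjusted p = 0.97). Cox7a2l, which links complexes into supercomplexes, and Cox7c were the lowest, at -0.07 ± 0.08 and -0.13 ± 0.11, and Cox7c was measured only by dim probe sets (69 to 224 on all arrays). The other probe sets of Cox7a2l lay lower than the one used, at -0.10 and -0.23. Ndufa4, Cox7a2l and Cox7c were chosen after their values were seen.

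Of the 4 tissue isoforms of complex IV, 0 were called. Cox6a2, the isoform of striated muscle and brown fat, ran from 2492 to 8719 (median 7032) in AL, from 5478 to 10173 (8093) in AL+EX, from 5027 to 9289 (7466) in CR and from 5483 to 10044 (7024) in CR+EX. Its groups overlapped broadly, at 0.06 ± 0.12 (adjusted p = 0.83 by limma). The testis isoform Cox6b2 was dim, with group medians of 96.8 to 114, and gave -0.09 ± 0.13 (adjusted p = 0.72). The excluded isoforms Cox8b and Cox7a1, also typical of muscle and brown fat, gave 0.09 ± 0.14 and -0.04 ± 0.18.

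In ATP synthase the call fell in the stalk. Atp5o, the protein that joins the catalytic head to the peripheral stalk, measured 4784 to 9800 (median 7311) in AL, 5750 to 10251 (8137) in AL+EX, 7833 to 12280 (8691) in CR and 7450 to 10384 (9399) in CR+EX. Restricted animals lay above the unrestricted median in 16 of 18 cases, and 2 of 19 unrestricted animals lay above the restricted one. The difference was 0.28 ± 0.08 (1.21-fold, adjusted p = 0.022 by limma). It did not pass without the 15 arrays high in B lymphocyte markers (0.27, adjusted p = 0.064), without the 5 with a high Gapdh ratio (0.23, 0.074) or after quantile normalization (0.22). The catalytic subunit Atp5b had medians of 12874 in AL, 13008 in AL+EX, 15082 in CR and 15008 in CR+EX, but its ranges overlapped broadly and the difference was 0.05 ± 0.10 (adjusted p = 0.83). The head and stalk had a median difference of 0.05, with 7 of 9 above 0, and the 8 subunits of the membrane part had a median of 0.17, with all 8 above 0 and 0 called. Atp5mpl, a small protein of that part, led it by p, at 0.18 ± 0.08 (adjusted p = 0.17). The differences between complexes were not tested.

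**Figure D2:**
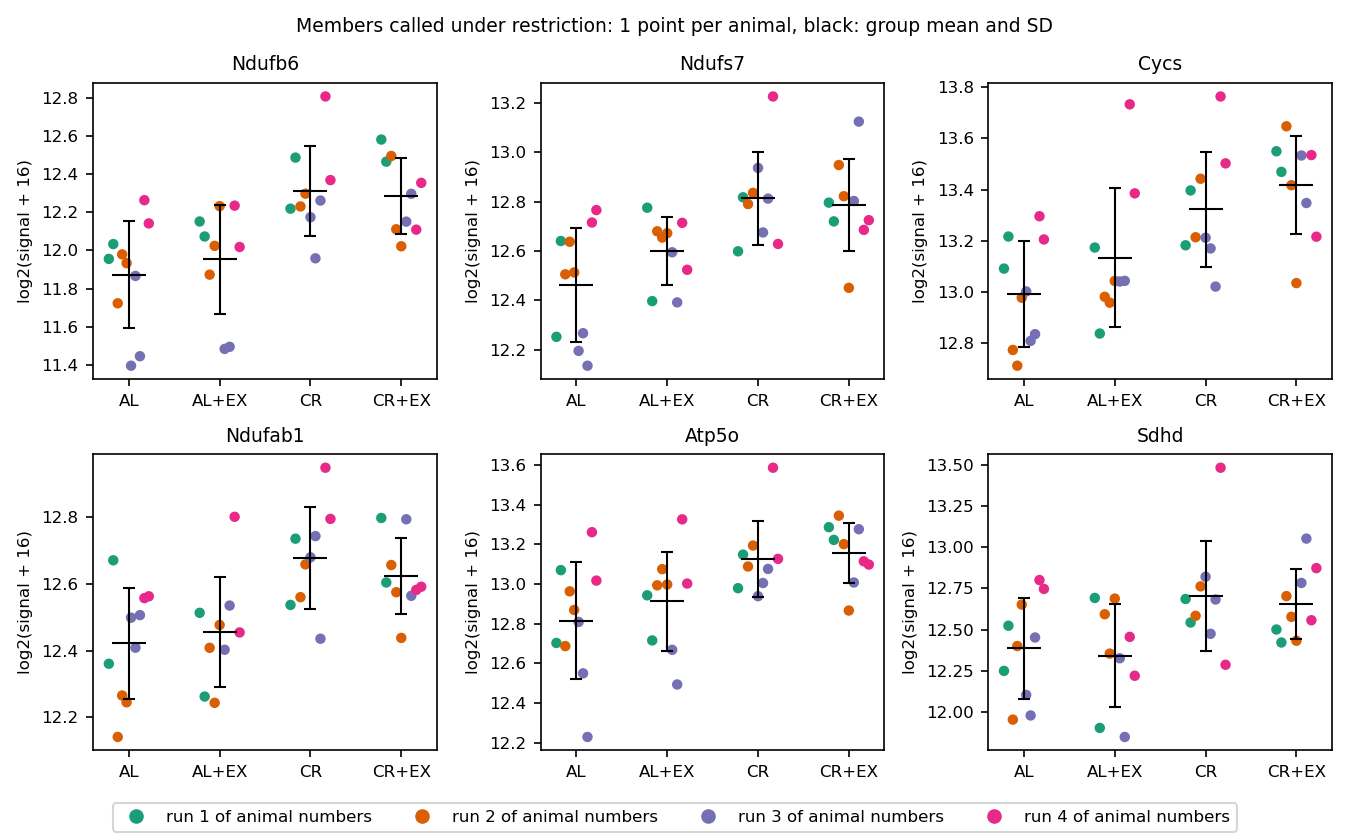
Log2(signal + 16) of the 6 called members by group, with 1 point per animal (10, 9, 9 and 9 animals), coloured by run of animal numbers, and the group mean with its SD in black. In each panel both restricted means lie above both unrestricted means while the ranges overlap, and the highest CR point of Atp5o and Sdhd belongs to CR replicate 8.

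The calls depended on which probe set stood for a gene. Probe sets were compared in a fit of every probe set by itself, chosen after seeing the data, which called 2.12% of all probe sets higher and 2.57% lower. The probe sets used for 5 of the 6 called members passed there too, and that of Sdhd did not (adjusted p = 0.052 by limma). Other probe sets of the 6 called members gave smaller differences, and 0 of them were called. For Cycs they gave 0.04 and 0.12, although the first is nearly as bright as the probe set used (mean signals 9226 and 9628). For Ndufb6 the other probe set gave 0.08 and for Ndufs7 0.06, both bright as well. The remaining ones, of Ndufab1 (-0.24 and -0.04), Atp5o (0.08) and Sdhd (-0.03), had mean signals of 117 to 730. The same fit called a probe set that had not been used for 3 other members. These were Ndufc2 (0.24, adjusted p = 0.033 by limma, against 0.07 for the one used) and Atp5pb, a subunit of the peripheral stalk (0.25, adjusted p = 0.021, against -0.01), both higher, and Cox7a2l (-0.23, adjusted p = 0.023, against -0.07), which was lower. With the mean of all probe sets per gene, 83 members passed the filter, and all 6 calls were lost and 1 other was made, Ndufb7 at 0.27 (adjusted p = 0.029 by limma), where 4.09% of all genes were called higher. The direction of the group was less sensitive: its median was then 0.08, with 71 of 83 above 0, and 50 of the 74 other probe sets lay on the same side as the one used. Among the 53 with a mean signal above 1000, 44 did.

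Scaling moved the count as well. Centring each array on its median gave 10 called members (background 5.26% higher), 81 of 84 above 0 and a median of 0.15 against 0.03 for all genes, and quantile normalization gave 4 (background 4.54%), 65 of 84 and 0.06 against 0.01. Over all genes the calls were 387 higher and 428 lower as reported, 489 and 185 after median centring and 422 and 318 after quantile normalization. Ndufb6, Ndufs7, Cycs and Ndufab1 were called in 10 of 11 settings, all but the mean of probe sets, Sdhd in 8 and Atp5o in 7.

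The wheel contrast set 18 animals with a wheel against 19 without, over both diets. For the members it gave 0 calls in limma's fit, as for all genes (0 of 9295, 2.87% with an unadjusted p under 0.05). Only Ndufa13, an accessory subunit of complex I, had an unadjusted p under 0.05 among the 84. Its signals were 5251 to 8661 (median 6415) in AL and 5801 to 7714 (6846) in CR, against 6350 to 8754 (7238) in AL+EX and 6186 to 8735 (7270) in CR+EX, and the ranges overlapped. Its difference was 0.15 ± 0.06 (p = 0.017, adjusted p = 0.9997 by limma). Members had a median of 0.03 with 61 of 84 above 0 (48.3% of all genes). That median was -0.00094, and 41 of 84 lay above 0, once the 15 arrays high in B lymphocyte markers were left out. The other members named by the smallest p in their complex were Atp5g1 (0.28 ± 0.14), Cox6a2 (0.17 ± 0.12), Ndufaf1 (0.14 ± 0.08), Cycs (0.12 ± 0.08), Uqcrh (0.11 ± 0.11), Atp5j (0.10 ± 0.07), Ndufs7 (0.06 ± 0.07), Sdha (-0.09 ± 0.09) and Cox8a (-0.28 ± 0.17).

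Pairs of groups gave 0 called members each. CR against AL, without wheels, had 72 of 84 above 0 (43.1% of all genes) and a median of 0.12. The background was 0.441% of all genes called (0.204% higher and 0.237% lower) and 14.9% with an unadjusted p under 0.05, where 12 members had one. Ndufb6 at 0.44 ± 0.12 and Ndufs7 at 0.35 ± 0.09 came nearest, both at an adjusted p of 0.066. CR+EX against AL+EX had 63 above 0 (46.6% of all genes) and a median of 0.07, with Ndufb6 at 0.33 ± 0.12. Its background was 1.66% called (0.861% higher and 0.796% lower) and 15.3% unadjusted, against 7 members unadjusted. CR+EX against AL had 74 above 0 (44.5% of all genes) and a median of 0.13. Its background was 0.624% called (0.323% higher and 0.301% lower) and 13.2% unadjusted, against 15 members unadjusted, and Cycs reached 0.42 ± 0.11 (adjusted p = 0.052). Without AL replicate 9, CR against AL called 2 members, and without CR+EX replicate 5, CR+EX against AL called 2. The shares of all genes called in those fits are not given here, so these counts are not a result about the members. The contrasts against AL share those animals, so their counts are not independent.

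The wheel without restriction, AL+EX against AL, had 61 members above 0 (46.6% of all genes) and a median of 0.05. The background was 0% called and 6.43% unadjusted, and 1 member had an unadjusted p under 0.05. That member was Atp5g1, which encodes the c subunit of the rotor ring, at 0.55 ± 0.20 (adjusted p = 0.64 by limma). Atp5g1 measured 1098 to 4698 (median 3136) in AL, 2537 to 5914 (3980) in AL+EX, 3009 to 5729 (3704) in CR and 2538 to 4816 (4049) in CR+EX. AL reached lower than the other groups, with AL replicate 8 at 1098. CR+EX against CR had 49 members above 0 (52.3% of all genes) and a median of 0.01, with a background of 0% called and 0.904% unadjusted, and 0 members unadjusted.

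The interaction asks whether the difference made by restriction was the same with and without a wheel. It had 0 called members in limma's fit and 0 with an unadjusted p under 0.05 (background 0% and 3.17%). The median was -0.03 against 0.03 for all genes, with 34 of 84 above 0 (54.5% of all genes). Atp5g1 had the lowest value, -0.54 ± 0.28. For the called members the interaction lay between -0.16 ± 0.14 (Ndufs7) and 0.00 ± 0.19 (Sdhd). Their intervals are wide against averaged differences of 0.21 to 0.39.

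The upward direction under restriction differed between runs of animal numbers. Within runs 1, 2 and 3 the members' median difference was 0.10, 0.14 and 0.07, with 72, 79 and 52 of 84 above 0. In run 4 it was -0.02, with 40 of 84 above 0, while the share of all genes above 0 was between 42.2% and 49.3% in the 4 runs. The 6 called members were above 0 in every run, with their smallest value in run 4 for Cycs (0.32, 0.44, 0.33 and 0.10 in runs 1 to 4), Atp5o (0.30, 0.21, 0.52 and 0.08), Ndufb6 (0.38, 0.28, 0.65 and 0.25), Ndufab1 (0.22, 0.29, 0.18 and 0.14) and Ndufs7 (0.22, 0.17, 0.54 and 0.14). Sdhd gave 0.20, 0.18, 0.66 and 0.24. Since they were called on the same animals, that agreement is a description. Of all members 24 were above 0 in every run (28.6%), against 11.3% of all genes. Run 3 had the widest spread, with Cox8a at 1.42 and Ndufa4 at 0.99.

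**Figure D3:**
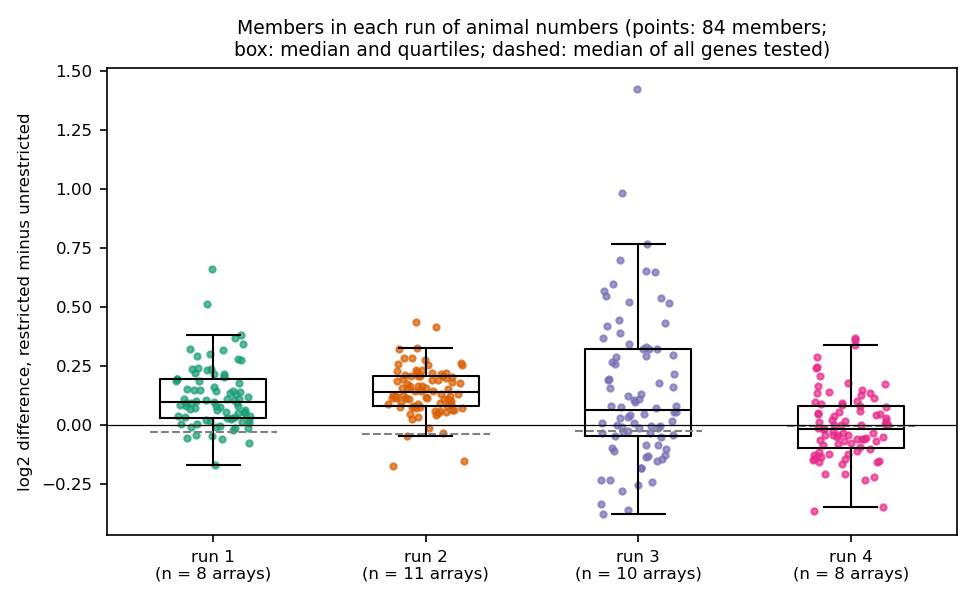
Log2 difference between restricted and unrestricted animals within each run of animal numbers (8, 11, 10 and 8 arrays), with 1 point per member (84), a box of median and quartiles with whiskers, and the median of all genes tested as a dashed line. The members' medians are 0.10, 0.14, 0.07 and -0.02 in runs 1 to 4.

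With the run as a block, 11 members were called higher and 0 lower in the averaged restriction contrast, which is 13.1% of the members against 8.61% of all genes called higher. They were the same 6, with Cox8a (0.48), Ndufa6 (0.22), Ndufaf3 (0.26), Ndufc1 (0.24) and Ndufs5 (0.22) added. In that fit CR against AL called 5 members: Ndufb6 (adjusted p = 0.0059 by limma), Ndufs7, Cycs, Ndufab1 and Atp5o. CR+EX against AL+EX called Ndufb6 alone, and CR+EX against AL called Cycs, Ndufb6, Atp5o and Ndufs7. All were higher, where 2.61%, 3.44% and 1.99% of all genes were called higher in these 3 contrasts. Without the 15 arrays high in B lymphocyte markers, which include all of run 4, 4 members were called (background 2.05% higher), the median was 0.14 and 80 of 84 lay above 0. Without the 5 arrays with a high Gapdh ratio 5 were called (background 3.32% higher), and the median was 0.10.

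Members varied together between animals within a group. With each gene centred on its group means, the median correlation between pairs of members over the 37 arrays was 0.35, against 0.01 for all genes. It was highest within the core of complex I (0.60) and within complex III (0.58), lower within ATP synthase's head and stalk (0.45), complex II (0.43) and the accessory subunits of complex I (0.41), and lowest within the membrane part of ATP synthase (0.20), complex IV (0.19), the assembly factors (0.17) and the 4 tissue isoforms of complex IV (0.15). All genes on an array share the RNA sample of 1 animal and the scaling of that array.

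Single animals stood out over many members. CR replicate 8, of run 4, was the highest CR animal for 61 of 84 members, and CR+EX replicate 5 was the lowest of its group for 55. AL+EX replicate 8 was the highest of its group for 48 and AL replicate 9 for 36, both also of run 4. In CR+EX the animal most often highest was replicate 7, of run 3, for 31. The same counts over all genes are not given here. CR replicate 8 also had the highest Ucp1 signal of all arrays, 31661, and the lowest mean over the luminal markers, 8.16 on the log2 scale. Without it the members' median difference under restriction was 0.07.

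Markers of other cell types moved with the members between animals. Ucp1, the uncoupling protein of brown fat, ranged from 1211 to 31661 over the arrays, and its median by run was 13078, 6964, 8861 and 22697. The members' mean log2 signal was also highest in run 4, with run medians of 12.42, 12.23, 12.41 and 12.49. The median correlation of members with the mean of 8 brown or beige fat markers was 0.39 (81 of 84 above 0, up to 0.78 for Uqcrc2), and with 14 skeletal muscle markers 0.45 (up to 0.86 for Ndufb5). With 10 luminal markers it was -0.47, with 6 basal markers -0.52, with 8 B lymphocyte markers 0.28 and with 11 white adipocyte markers -0.04. It was 0.31 for T lymphocyte, 0.19 for red blood cell, 0.01 for macrophage and -0.21 for endothelium markers. For genes outside the members, the median correlation with these lists ran from -0.05 (white adipocyte) to 0.04 (B lymphocyte). The share of those genes above 0 is not given here. Ppargc1a, Cox8b and Cox7a1 in the brown fat list are themselves mitochondrial genes or a regulator of them.

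Between diets those markers did not run alike. The brown or beige fat list had 0 of 8 called and a median difference of -0.0046 under restriction, with Ucp1 at 0.03 ± 0.32, and its summed signal ranged from 19914 to 85388 in AL, from 29383 to 74984 in AL+EX, from 20984 to 95167 in CR and from 26823 to 57561 in CR+EX. The muscle list had 0 of 14 called and a median of -0.10, with Mb, myoglobin, at -0.51 ± 0.18 (adjusted p = 0.071 by limma), and sums of 131448 to 411387 in AL, 206808 to 535299 in AL+EX, 240538 to 354055 in CR and 196111 to 426687 in CR+EX. Of 10 luminal markers 2 were called lower and all 10 lay below 0, with a median of -0.46. They were Cd24a (-0.71 ± 0.15) and Wfdc2 (-0.67 ± 0.21). The luminal sum ranged from 6333 to 30505 in AL, 6889 to 31964 in AL+EX, 3843 to 22671 in CR and 9201 to 21839 in CR+EX. The 6 basal markers did not follow the luminal ones: Cnn1 gave 0.58, Krt14 0.42, Oxtr 0.30, Acta2 0.15, Krt5 0.02 and Trp63 -0.22. Their adjusted p ran from 0.15 to 0.98 by limma. None of these lists had a marker listed at 0. The part of the lower luminal markers in the members' differences was not tested.

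**Figure D4:**
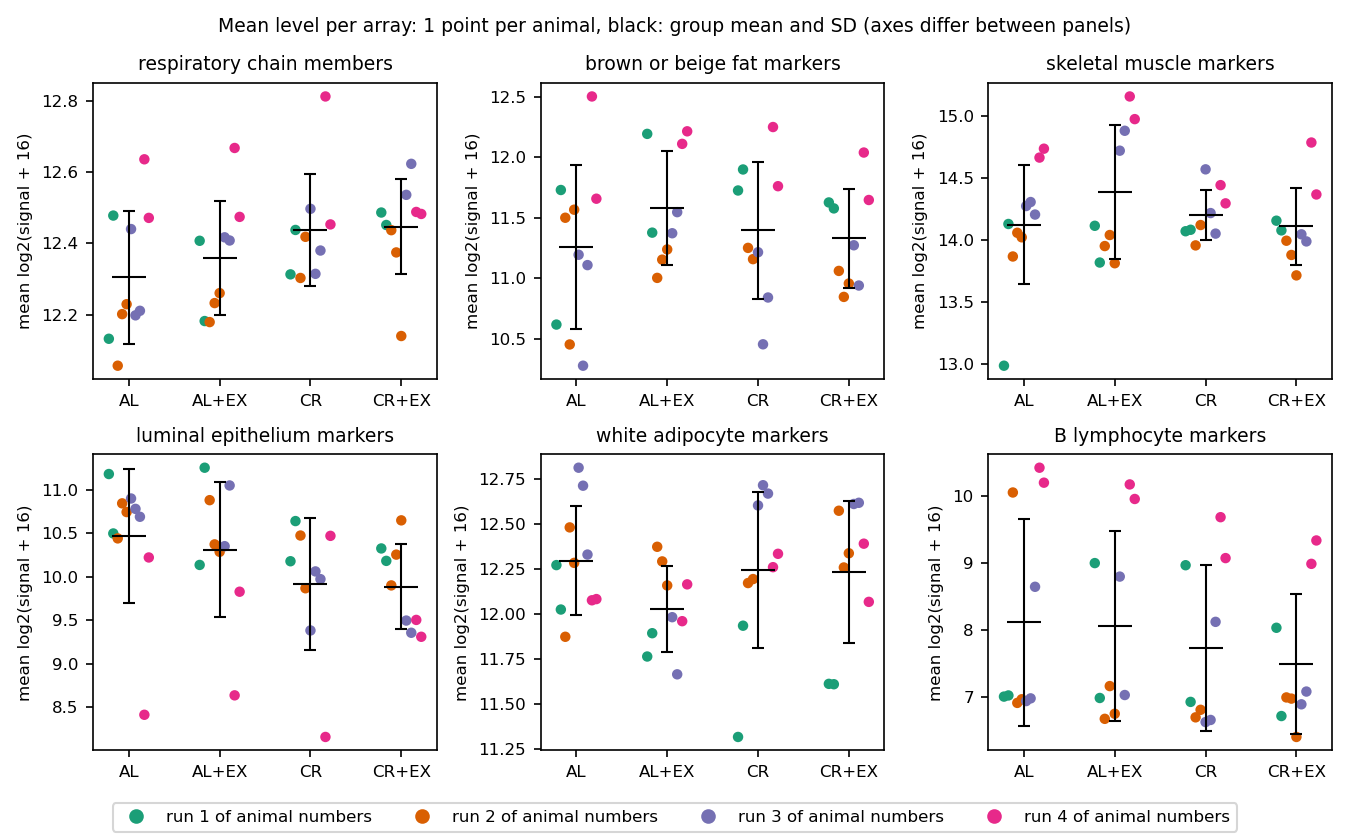
Mean log2(signal + 16) per animal of the 84 members and of 5 marker lists by group (10, 9, 9 and 9 animals), coloured by run of animal numbers, with the group mean and SD in black and separate axes for each panel. Taken over all groups, run 4 sits high for the members and for the brown fat, muscle and B lymphocyte markers and low for the luminal markers. This does not hold within every group: in CR+EX the members' means of run 4 (12.49 and 12.48) lie below those of run 3 (12.54 and 12.62). The restricted groups lie lower for the luminal markers.

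Most other lists of mitochondrial genes had medians above 0 under restriction, and the list of regulators did not. The counts below stand beside 4.16% of all genes called higher and 4.6% called lower, and beside 7.14% of the members called higher. In the tricarboxylic acid cycle and pyruvate dehydrogenase list, 3 of 17 were called higher: Dlat (0.58 ± 0.11) and Pdhb (0.34 ± 0.08) of pyruvate dehydrogenase and Pcx, pyruvate carboxylase (0.56 ± 0.13). Of 11 carriers and channels 4 were called higher, namely Slc25a10, the dicarboxylate carrier (0.82 ± 0.19), Slc25a5, an ADP/ATP carrier (0.47 ± 0.11), Mpc1 of the pyruvate carrier (0.38 ± 0.08) and Ucp3 (0.34 ± 0.09). Slc25a4, the ADP/ATP carrier typical of muscle and chosen here after its value was seen, gave -0.08 ± 0.10. Each of these lists is small, and their median differences were 0.12 and 0.05.

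Among genes that build the complexes, every call was on the higher side, but assembly factors were not called more often than all genes. Of 26 assembly factors outside the Ndufaf family 1 was called higher, 3.85% against 4.16% of all genes. It was Bcs1l, which inserts the Rieske protein into complex III (0.36 ± 0.10). Of 74 genes of the mitochondrial ribosome 8 were called higher (10.8%) and 0 lower, led by Mrps22 (0.34 ± 0.07) and Mrps6 (0.54 ± 0.13), with Mrpl27, Mrpl12, Mrpl17, Mrpl38, Mrpl14 and Mrpl42 between 0.23 and 0.30. Of 21 genes of protein import 3 were called higher (14.3%), namely Timm50 (0.38 ± 0.08), Timm13 (0.37 ± 0.09) and Timm8b (0.29 ± 0.09). Timm8b lies head to head with Sdhd in RefSeq's order of genes, a pair picked after both had been called. Of 6 antioxidant genes 1 was called higher, Prdx3 (0.29 ± 0.08), and of 11 other electron donors and ubiquinone synthesis genes 0, with Gpd2 nearest (0.36 ± 0.12, adjusted p = 0.060 by limma).

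Regulators of mitochondrial biogenesis lay on the other side. Of 20 tested, 18 were below 0, beside 5133 of all 9295 genes tested. The list median was -0.12, and 0 were called. Tfam, which packages and transcribes mitochondrial DNA, had the smallest p, at -0.21 ± 0.07 (adjusted p = 0.060 by limma). Ppargc1a, the coactivator PGC-1alpha, gave -0.41 ± 0.19 (adjusted p = 0.18), and Nrf1, whose binding letters are printed above, gave -0.07 ± 0.08 (0.63); both were chosen after their values were seen. The difference between this list and the members was not tested.

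**Figure D5:**
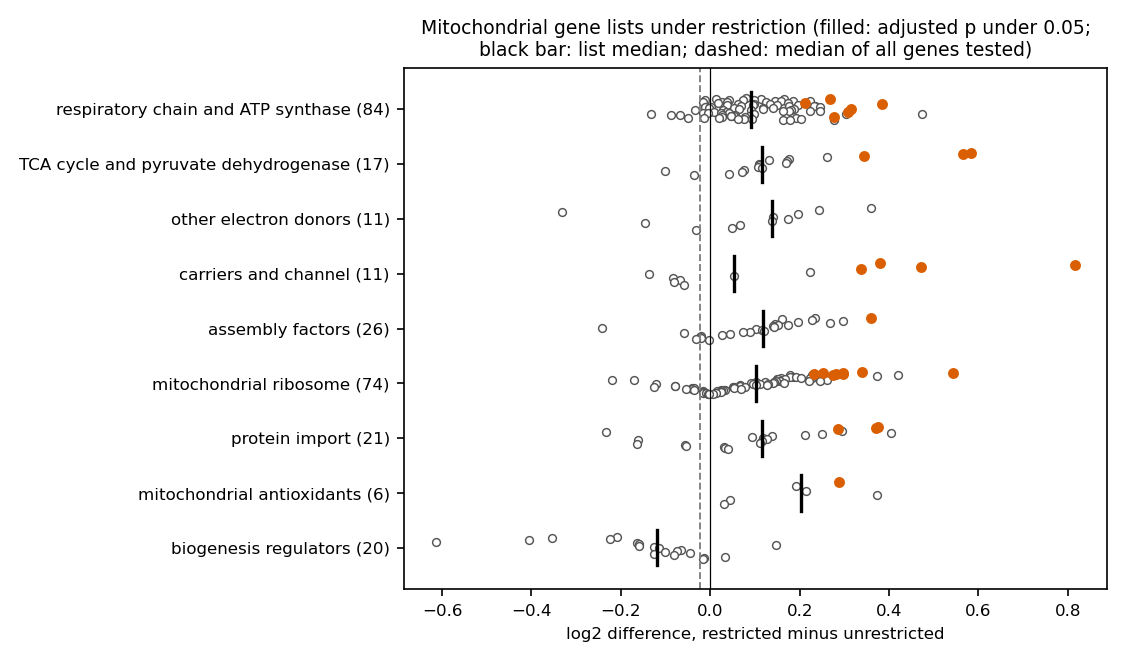
Log2 difference between restricted and unrestricted animals, averaged over the wheel, for the 84 members and 8 other lists of mitochondrial genes, with 1 point per gene, called genes filled and the list median as a black bar. The members' median is 0.09 and that of the 20 biogenesis regulators -0.12, beside -0.02 for all genes tested (dashed).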

How the data were processed

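The deposited table held 1 Affymetrix signal intensity per probe set and array (22690 probe sets, 37 arrays), made by the authors with GCOS version 1, per the submitters' processing notes. Which signal algorithm was run is not stated in what was used here. Arrays had been scaled by the authors: trimmed means (2% off each end) were 500.165 to 500.23, so they were not rescaled.

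Analysis was on log2(signal + 16). Gene symbols came from the platform's annotation (20393 probe sets name 1 gene, 691 several), and each of 12394 genes was read from its brightest probe set. A filter dropped the dimmest 25% of genes by mean (under 6.71 in log2 units, or 88.7 as a signal). Group means were fitted in limma 3.58.1 (R 4.3.3) to all arrays, with empirical Bayes variances following the mean and 33 residual degrees of freedom. The 8 contrasts were tested two-sided, with Benjamini-Hochberg adjustment over all 9295 genes within each, and "called" means an adjusted p under 0.05. Values after ± are standard errors of that fit. Each array is 1 animal. On simulated data with known changes in the averaged restriction contrast (9295 genes tested), 15 of 50 genes shifted by 0.3 and 44 of 50 shifted by 0.6 on the log2 scale were called. The shifted genes were drawn at random from all but the dimmest genes, with their own spread, and not from the members. No shift as small as the members' median of 0.09 was simulated, so how often members' differences were missed is not known.

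The members and all lists were chosen with earlier results of these data known. Named with statistics were called members, the member with the smallest p in each complex for restriction and for the wheel, a fixed set of well-known subunits, and called genes of the other lists (or the smallest p where none was called); others are named as chosen after their values were seen. Sequences are RefSeq's, matched by Entrez gene ID. Alternatives were the pseudocount, the scaling, the filter, the mean of all probe sets, the variance trend, the run of animal numbers as a block, and leaving out single or doubted arrays.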

Additional observations from a re-analysis of the deposited data

Results flagged for a closer look

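Among 112 combinations of named member and group, 6 had an animal far from the rest of its group by Dixon's gap, and chance flags about 1 in 20 such groups. The extreme signals of 4 of them belonged to CR replicate 8, of run 4: Atp5o at 12279.9 (next highest 9352.3), Cyc1 at 16492.6 (12257.7), Sdhb at 18744.5 (13110.8) and Sdhd at 11433 (7221.4). The lowest AL signal of Cox6a2 was 2492.5 in AL replicate 1 (next lowest 5168.7), and that of Cox8a was 2859.6 in AL replicate 8 (9415.8). Both AL animals were among the 5 with a Gapdh ratio above 2.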

How the results depend on the processing

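In the averaged restriction contrast 6 members were called, against 10 after median centring, 1 with the mean of all probe sets and 11 with the run of animal numbers as a block, and 5 to 9 when each animal in turn was left out (9 without AL replicate 9 or AL replicate 10). With the block, CR against AL called 5, CR+EX against AL+EX 1 and CR+EX against AL 4. CR+EX against AL also called 1 after median centring, 1 after quantile normalization and 1 with 50% of genes left out. Leaving out single animals gave 0 to 2 in CR against AL and 0 to 2 in CR+EX against AL. Shares of all genes called are not given here for the fits without single animals. They are also not given for CR+EX against AL after median centring, after quantile normalization or with 50% of genes left out. Those counts are therefore not a result about the members. The cause of these changes in count was not tested. The members' median difference under restriction ranged from 0.06 to 0.15 over the settings and from 0.07 to 0.12 over single animals, and under the wheel from 0.01 to 0.05 over single animals. Members near 0 changed sign. After quantile normalization Atp5j was at -0.020, Cox5a at -0.034 and Uqcrc2 at -0.016 under restriction. With the mean of probe sets Cox5a was at -0.0041, Ndufab1 at -0.023 and Uqcrc2 at -0.042, so the call of Ndufab1 rests on its brightest probe set. Without the 5 arrays with a high Gapdh ratio Atp5j was at -0.0041, Cox5a at -0.017 and Cox6a2 at -0.085. Without the 15 arrays high in B lymphocyte markers the wheel difference was -0.047 for Atp5j and -0.027 for Uqcrh. Leaving out single animals gave -0.0064 to 0.035 for Atp5j, -0.031 to 0.035 for Cox5a, -0.020 to 0.089 for Cox6a2, -0.020 to 0.034 for Ndufaf1 and -0.021 to 0.059 for Uqcrc2. No paired analysis was possible because replicate numbers only name animals in order, and each animal had 1 array.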
